A study of Mus musculus with 16 samples.

Results

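The miR-29 family was examined in whole lungs of mice with ovalbumin-driven allergic airways disease (AAD), of their controls and of diseased mice treated with dexamethasone, a synthetic glucocorticoid. Members were all miRNAs of the array whose systematic name was mmu-miR-29a, mmu-miR-29b or mmu-miR-29c with an optional locus or arm suffix. The rule found 6 of the 611 mouse miRNAs on the array, namely miR-29a-3p, miR-29b-3p, miR-29c-3p, miR-29a-5p, miR-29b-1-5p and miR-29c-5p. The rule used names and no measured value, though it was chosen with earlier results of these data known. All 6 were detected by the scanner software on all 16 arrays, and all 6 passed the detection filter and were tested.

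The mice were BALB/c, aged 8 to 12 weeks. PBS/PBS mice (2 arrays) received the adjuvant Alhydrogel (1 mg) alone on day 0 and PBS intranasally, as the sample labels give it. PBS/OVA mice (4 arrays) received Alhydrogel alone and were then challenged with ovalbumin (OVA, the egg white allergen), at 10 μg on days 12 to 15. OVA/OVA mice (6 arrays) were sensitised with 50 μg OVA in 1 mg Alhydrogel and challenged in the same way, and OVA/OVA DEX mice (4 arrays) had dexamethasone at 3 mg/kg in addition, starting on day 11. RNA was taken 24 hours after the last challenge. For PBS/PBS, the study's general protocol states an OVA challenge of all mice, and the labels were followed here. The labels number the arrays of a group and do not tie them to single animals, so p-values measure the spread between arrays. Each array lay on 1 of 2 slides, and both PBS/PBS arrays lay on slide 1.

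Before scaling, the PBS/PBS arrays were the brightest, with a signal of 793227 and 940050 summed over all mouse miRNAs. The sum lay between 493063 and 718149 on the PBS/OVA arrays, between 499733 and 638811 with dexamethasone and between 251350 and 733489 in OVA/OVA, the group that held the lowest value. Signals were divided by the 75th percentile of the array over the 206 miRNAs detected on all arrays, and log2 was taken. All levels below are log2 values of this scaled signal, and all differences are differences of log2 values. A miRNA is described as past the threshold when its adjusted p was under 0.05 (limma's moderated test, Benjamini-Hochberg adjustment over the 266 miRNAs tested). Signals of different probes are not comparable, so no member's level was set against another member's.

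MiRNAs are short RNAs that pair through their seed, the bases near the 5′ end, with sites in mRNAs and so lower their translation and stability. The miR-29 family is known as a brake on extracellular matrix. The mRNAs of several collagens, elastin and fibrillin carry sites for its seed, transforming growth factor beta lowers the family in fibroblasts, and loss of miR-29 is a known feature of fibrotic lung. Its 3′ arms are the usual guide strands, which are loaded into the silencing complex, and its 5′ arms are the passenger strands of the same hairpins.

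The mature sequences (RefSeq, GRCm38) are shown because the members share a seed on one arm and differ on the other, and because the guides are close enough that their probes may cross-hybridise. Capitals mark the seed, bases 2 to 8 from the 5′ end.
miR-29a-3p: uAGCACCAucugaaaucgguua
miR-29b-3p: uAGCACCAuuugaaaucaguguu
miR-29c-3p: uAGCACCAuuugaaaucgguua
miR-29a-5p: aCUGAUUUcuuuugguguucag
miR-29b-1-5p: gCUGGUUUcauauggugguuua
miR-29c-5p: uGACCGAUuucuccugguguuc

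The first 9 bases of the 3 guides were identical, and among the 1679 mature mouse miRNAs of the RefSeq table only these 3 carried the seed. Counting from the 5′ end, miR-29c-3p differed from miR-29a-3p by the single substitution C10U (base of miR-29a-3p first). MiR-29b-3p differed from miR-29a-3p by C10U, G18A, U21G and A22U and was 1 base longer, 23 against 22. A sequence element at the 3′ end of miR-29b is known from other work to direct it to the nucleus. Each 5′ arm had a seed of its own that no other miRNA of the array shared.

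The family is encoded at 2 loci. On the minus strand of chromosome 6, Mir29a (miR-29a-3p at chr6:31062673-31062694, miR-29a-5p at chr6:31062711-31062732) lies 275 bases from Mir29b-1 (miR-29b-3p at chr6:31063025-31063047, miR-29b-1-5p at chr6:31063067-31063088). On the plus strand of chromosome 1, Mir29b-2 (miR-29b-3p at chr1:195037091-195037113) lies 426 bases from Mir29c (miR-29c-5p at chr1:195037562-195037583, miR-29c-3p at chr1:195037600-195037621). MiR-29b-3p is identical from both loci, so its signal is the sum of the 2 genes and belongs to neither locus alone. The 5′ arm of Mir29b-2 was not analysed here.

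Unscaled signals, given for each member by itself, ranged from 3961 to 18901 for miR-29a-3p, from 3265 to 16143 for miR-29b-3p and from 1846 to 9523 for miR-29c-3p. The corresponding ranges were 47.1 to 204 for miR-29a-5p, 33.0 to 91.6 for miR-29b-1-5p and 48.8 to 259 for miR-29c-5p. Each guide and miR-29c-5p was read by 2 probes. MiR-29a-5p and miR-29b-1-5p were read by 4 probes each, of which 2 never exceeded a scaled signal of 5.955, so these values rest on the other 2 probes.

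MiR-29a-3p was 13.29 and 13.31 in PBS/PBS. The PBS/OVA arrays gave 13.40, 12.99, 13.42 and 13.29. OVA/OVA arrays ran from 13.01 over a median of 13.10 to 13.28, and OVA/OVA DEX arrays were at 13.66, 13.54, 13.52 and 13.27. All OVA/OVA values lay below both PBS/PBS values, and 1 OVA/OVA DEX array, replicate 4, fell within the OVA/OVA range. Ordered by group mean, miR-29a-3p was lowest in OVA/OVA (13.13 ± 0.10, SD, n = 6), then in PBS/OVA (13.27 ± 0.20, n = 4), PBS/PBS (13.30 ± 0.01, n = 2) and OVA/OVA DEX (13.49 ± 0.17, n = 4). PBS/OVA and PBS/PBS differed by less than the SD of PBS/OVA.

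For miR-29b-3p, PBS/PBS arrays were at 12.92 and 13.08 and PBS/OVA arrays at 12.99, 12.55, 13.02 and 12.95. In OVA/OVA it ran from 12.73 over a median of 12.87 to 13.04. OVA/OVA DEX arrays were at 13.60, 13.28, 13.33 and 13.07, each above every OVA/OVA array. The group means were 12.88 ± 0.22 in PBS/OVA, 12.89 ± 0.13 in OVA/OVA, 13.00 ± 0.12 in PBS/PBS and 13.32 ± 0.22 in OVA/OVA DEX, and the first 3 lay within 1 SD of their neighbours.

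MiR-29c-3p was at 12.28 and 12.32 in PBS/PBS and at 12.44, 11.91, 12.44 and 12.32 in PBS/OVA. The OVA/OVA arrays ran from 11.91 over a median of 12.00 to 12.25, below both PBS/PBS arrays. OVA/OVA DEX arrays reached 12.70, 12.56, 12.54 and 12.39 and did not overlap OVA/OVA. Group means rose from 12.05 ± 0.13 in OVA/OVA over 12.28 ± 0.25 in PBS/OVA and 12.30 ± 0.03 in PBS/PBS to 12.55 ± 0.13 in OVA/OVA DEX, and the difference between PBS/OVA and PBS/PBS lay within the SD of PBS/OVA.

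Of the passenger strands, miR-29c-5p was also lowest in OVA/OVA and highest in OVA/OVA DEX, with PBS/PBS (7.12) and PBS/OVA (7.13) close together between them. It was at 7.12 on both PBS/PBS arrays, at 7.17, 6.89, 7.28 and 7.16 in PBS/OVA, and it ran from 6.67 over 6.79 to 7.01 in OVA/OVA. The OVA/OVA DEX arrays gave 7.44, 7.25, 7.28 and 7.27. MiR-29a-5p was at 6.75 and 6.78 in PBS/PBS and at 6.70, 6.17, 6.85 and 6.83 in PBS/OVA. It ran from 6.49 over 6.59 to 6.72 in OVA/OVA, and the OVA/OVA DEX arrays reached 7.08, 7.06, 7.03 and 6.72. For both 5′ arms every OVA/OVA array lay below every PBS/PBS and every OVA/OVA DEX array, though for miR-29a-5p the highest OVA/OVA array and OVA/OVA DEX replicate 4 both rounded to 6.72.

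MiR-29b-1-5p stood apart from the other members. Its values were 5.65 and 5.54 in PBS/PBS, 6.22, 5.70, 5.58 and 5.74 in PBS/OVA, and 5.46 over 5.99 to 6.17 in OVA/OVA. With dexamethasone they were 5.87, 5.95, 6.40 and 5.82. The groups with challenge overlapped throughout. The slides differed more than the groups did, with a mean of 5.64 on slide 1 (5.46 to 5.87) and 6.07 on slide 2 (5.74 to 6.40), 8 arrays each. For the other 5 members the means of the slides lay within 0.11 of each other.

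**Figure D1:**
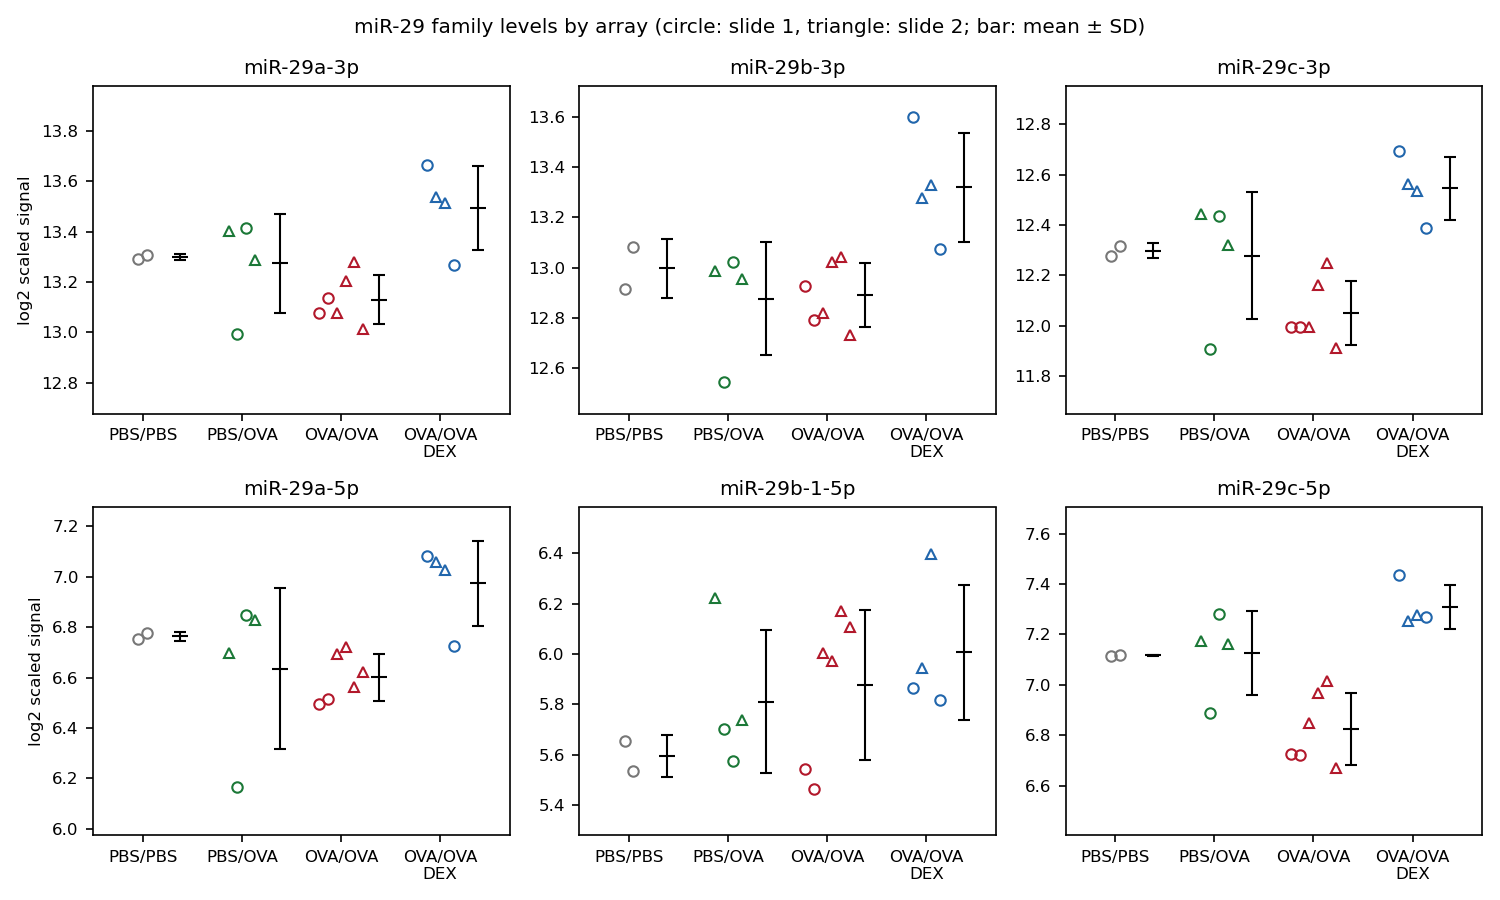
Level of each family member on each array (y axis, log2 scaled signal, all panels with the same span) by group (x axis); circles are slide 1, triangles slide 2, and the black bar is the group mean with its SD. The OVA/OVA DEX mean is the highest in every panel, though in that of miR-29b-1-5p the groups with challenge overlap. In the panels of the 3 guides, miR-29a-5p and miR-29c-5p, 1 PBS/OVA array (replicate 2) sits far below its group. In the panel of miR-29b-1-5p the OVA/OVA triangles (5.97 to 6.17) sit above the circles (5.46 and 5.54).

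In AAD with and without dexamethasone, 5 of the 6 members were lower in OVA/OVA than in OVA/OVA DEX and past the threshold. MiR-29c-3p showed a difference of -0.49 (SE 0.11, 95% interval -0.72 to -0.27, adjusted p = 0.0022), which is 1.41-fold. For miR-29c-5p it was -0.48 (SE 0.09, adjusted p = 0.00076), or 1.40-fold. MiR-29b-3p differed by -0.43 (SE 0.12, adjusted p = 0.0078, 1.35-fold), miR-29a-5p by -0.37 (SE 0.12, adjusted p = 0.020, 1.30-fold) and miR-29a-3p by -0.36 (SE 0.10, adjusted p = 0.0071, 1.29-fold). MiR-29b-1-5p, at -0.13 (95% interval -0.50 to 0.24, adjusted p = 0.56), was not past the threshold. None of the 5 reached 2-fold.

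Among all 266 miRNAs tested, 86 (32.3%) were lower in OVA/OVA than in OVA/OVA DEX and past the threshold, and 56 were higher. The median difference was -0.40 over the 6 members and -0.09 over all miRNAs tested. In 4 members (miR-29b-3p, miR-29c-3p, miR-29a-5p and miR-29c-5p) every OVA/OVA array lay below every OVA/OVA DEX array, as was the case for 44 of all 266 miRNAs (16.5%). Within slide 1 the differences of the 5 members ranged from -0.63 to -0.36 and within slide 2 from -0.47 to -0.38, with 2 OVA/OVA DEX arrays on each slide.

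The scaling between arrays bears on this comparison. As reported, the median over all miRNAs was -0.09. It moved to -0.38 when arrays were not scaled, to -0.31 with the percentile over all miRNAs, and to -0.14 with quantile normalization. Relative to these medians, that of the 6 members was at -0.31 with either percentile and when arrays were not scaled, and at -0.12 with quantile normalization. Without scaling all 6 members were below 0 (-0.78 to -0.42) and none passed the threshold. With quantile normalization the guides were at -0.10 (miR-29a-3p), -0.12 (miR-29b-3p) and -0.03 (miR-29c-3p), none past the threshold, and miR-29a-5p and miR-29c-5p remained past it. With normexp background correction the 3 guides stayed past the threshold (-0.49 to -0.38), whereas miR-29a-5p turned to 0.09 and miR-29c-5p moved to -0.08, beside a median over all miRNAs of 0.16.

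**Figure D2:**
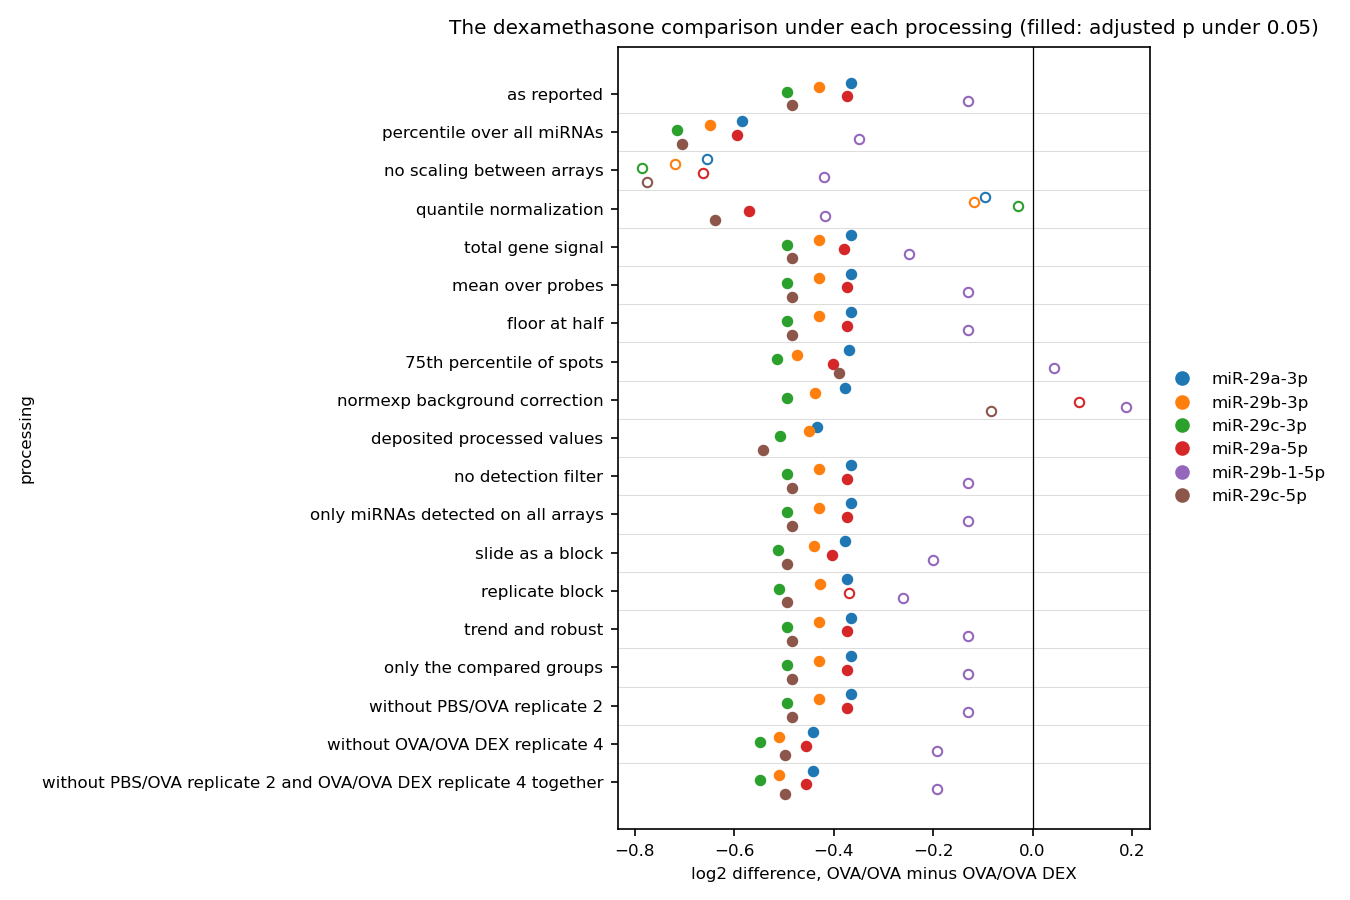
Difference between OVA/OVA and OVA/OVA DEX (x axis, log2) for each member (colours) under each processing of the files (y axis); filled points are past an adjusted p of 0.05, and the deposited processed values hold only 4 usable members. The guides stay left of 0 under all 19 settings drawn, and the 5′ arms cross 0 under normexp (miR-29a-5p and miR-29b-1-5p) and under the 75th percentile of spots (miR-29b-1-5p).

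One OVA/OVA DEX array was uneven. On replicate 4, 16.8% of the spots of bright probes (over 500 units) gave less than 0.5 of the brightest spot of their probe, against at most 0.294% on each of the other 15 arrays. Of the 60 spots of the miR-29 guides on that array 17 were this dim, and on the other arrays 0 were. The scanner software had not marked them as outliers. The log2 ratio of the 2 probes of miR-29b-3p was -1.14 on that array and between -2.22 and -1.84 on the others. Without this array the differences of the 5 members from OVA/OVA were -0.55 to -0.44, all past the threshold. With the 75th percentile of the spots of a probe in place of their mean, they were -0.51 to -0.37.

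**Figure D3:**
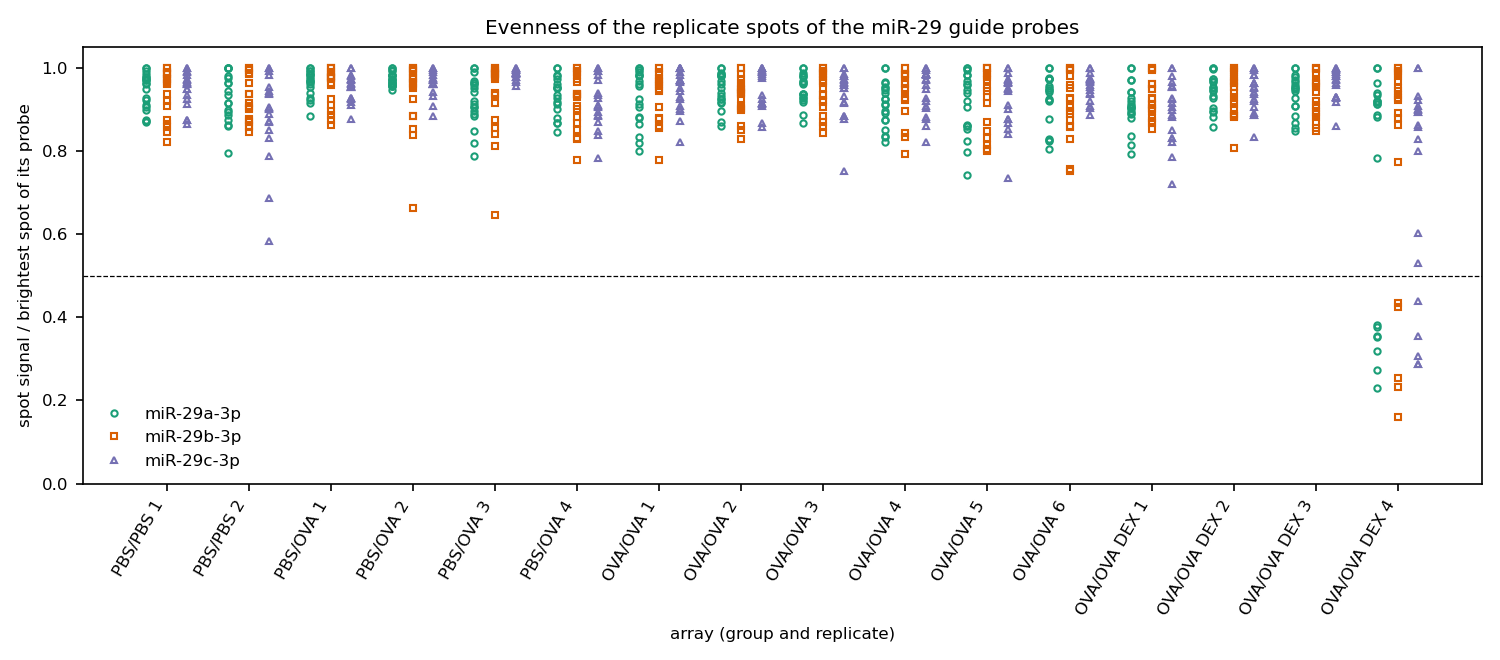
Signal of each spot of the miR-29 guide probes divided by the brightest spot of the same probe (y axis, from 0 to 1) on each array (x axis), with the dashed line at 0.5. On OVA/OVA DEX replicate 4, 17 of 60 spots lie below the line, and on the other 15 arrays none do.

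Other RNA populations of the lung moved in the same comparison. Of all 266 miRNAs tested, 86 (32.3%) were lower in OVA/OVA and past the threshold, and 56 were higher. The counts below are of miRNAs past the threshold in short lists and are to be read beside these shares. Fewer cells of a type and less RNA per cell cannot be told apart in whole-lung RNA. The summed signal of the red cell miRNAs (miR-451 and miR-144-3p) ran from 36986 to 70438 on OVA/OVA arrays and from 100092 to 136112 with dexamethasone, and both were lower in OVA/OVA and past the threshold. The array holds the sequence of a further red cell miRNA, miR-486-5p, under the name miR-3107-5p, which differed by -1.06 (SE 0.18, adjusted p = 0.00053). The 6 haematopoietic miRNAs (miR-142-3p, miR-142-5p, miR-150-5p, miR-223-3p, miR-342-3p and miR-155-5p) summed to 33102 to 48821 on OVA/OVA arrays and 18482 to 27225 with dexamethasone. Of these, 5 were higher and 0 lower, and miR-150-5p was not past the threshold (0.44, adjusted p = 0.077). The endothelial miR-126 arms summed to 30554 to 40853 and 40697 to 48460 (2 of 2 lower), and the fibroblast-enriched miRNAs of the miR-199 and miR-214 genes to 5981 to 7166 and 7034 to 8416 (3 of 4 lower). Both smooth muscle miRNAs, miR-143-3p and miR-145-5p, were lower (2294 to 2803 against 2767 to 3607), as were 2 of the 3 striated muscle miRNAs tested (627 to 2131 against 1684 to 2865). Of the ciliated epithelium list 3 of 5 were lower and 1 higher (4026 to 5372 against 3641 to 4643), and of the epithelial list 1 of 5 was lower and 1 higher (9087 to 9744 against 8543 to 10412). The epithelial miR-205-5p and the muscle miRNAs miR-206-3p and miR-208a-3p, though on the array, did not pass the detection filter. The part of these shifts in the miR-29 differences was not tested.

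Compared with PBS/OVA mice, which were challenged but not sensitised, only miR-29c-5p was past the threshold in OVA/OVA. Its difference was -0.30 (SE 0.09, 95% interval -0.49 to -0.11, adjusted p = 0.022), or 1.23-fold lower. MiR-29c-3p from the same hairpin was at -0.23 (SE 0.11, 95% interval -0.46 to 0.0025, adjusted p = 0.11). The chromosome 6 guide miR-29a-3p was at -0.14 (SE 0.10, adjusted p = 0.25), miR-29b-3p at 0.01 (SE 0.12, adjusted p = 0.94), miR-29a-5p at -0.03 (SE 0.12, adjusted p = 0.84) and miR-29b-1-5p at 0.07 (SE 0.17, adjusted p = 0.76). Over all miRNAs 45 of 266 (16.9%) were lower in OVA/OVA and past the threshold, so 1 of 6 members is about the same share. The groups overlapped for every member.

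This comparison depended on single PBS/OVA arrays. PBS/OVA replicate 2 was the lowest of its group for the 3 guides, miR-29a-5p and miR-29c-5p, and its median correlation with the other PBS/OVA arrays over all detected miRNAs was 0.978, against 0.990 to 0.992 for those. Among the OVA/OVA arrays the same median ran from 0.980 to 0.986, so 0.978 was only slightly below that group. Without PBS/OVA replicate 2, miR-29c-5p was at -0.38 (adjusted p = 0.0043), miR-29c-3p at -0.35 (adjusted p = 0.0077) and miR-29a-3p at -0.24 (adjusted p = 0.041), each past the threshold, and miR-29b-3p at -0.10 (adjusted p = 0.46). Without PBS/OVA replicate 1, 3 or 4 no member was past the threshold. Why this array was low was not tested.

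Against PBS/PBS, 0 of the 6 members were past the threshold in OVA/OVA by limma, 1 had an unadjusted p under 0.05 and 0 passed in the exact Mann-Whitney test (which with 2 against 6 arrays cannot go under 0.071), while 68 of all 266 miRNAs (25.6%) were past it in either direction. MiR-29c-5p came closest at -0.29 (SE 0.11, 95% interval -0.53 to -0.05, adjusted p = 0.065), followed by miR-29c-3p at -0.25 (SE 0.13, 95% interval -0.54 to 0.04, adjusted p = 0.17). MiR-29a-3p was at -0.17 and miR-29a-5p at -0.16, and in these 4 members every OVA/OVA array lay below both PBS/PBS arrays, as was the case for 68 of all 266 miRNAs (25.6%). MiR-29b-3p was at -0.11 and miR-29b-1-5p at 0.28, the latter at -0.09 within slide 1, where both PBS/PBS arrays lay. The miR-29c-5p difference passed the threshold without PBS/OVA replicate 2 (adjusted p = 0.035), which changed the estimate of the spread and not the difference. Without scaling between arrays, or with the percentile over all miRNAs, 5 members were lower in OVA/OVA and past the threshold, at differences of -1.39 to -1.20 and of -0.83 to -0.64 beside medians over all miRNAs of -1.11 and -0.56. Of all 266 miRNAs, 156 (58.6%) and 125 (47.0%) were lower and past the threshold under these settings. With normexp 2 members were past it in the other direction, miR-29a-5p at 0.59 and miR-29b-1-5p at 0.84, where 145 of all 266 (54.5%) were higher and the median was 0.55.

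PBS/OVA and PBS/PBS did not separate for any member. Differences ran from -0.13 (miR-29a-5p) to 0.22 (miR-29b-1-5p), 0 of 6 members were past the threshold in limma (0 at an unadjusted p under 0.05 and 0 in the exact Mann-Whitney test, whose smallest p for 2 against 4 arrays is 0.13), and 1 of all 266 miRNAs (0.376%) was. The intervals were wide with 2 PBS/PBS arrays, from -0.30 to 0.25 for miR-29a-3p and from -0.33 to 0.29 for miR-29c-3p.

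OVA/OVA DEX mice were compared with PBS/PBS mice to ask how far treated lungs differed from healthy ones. All 6 members were higher in OVA/OVA DEX by 0.19 to 0.41, though the sign depended on the scaling, since all 6 were below 0 (-0.61 to -0.39) without scaling, 4 with the percentile over all miRNAs and 3 with quantile normalization. None was past the threshold in limma (0 at an unadjusted p under 0.05 and 0 in the exact Mann-Whitney test), and neither was any of the 266 miRNAs tested (0.0%, with 19 at an unadjusted p under 0.05). MiR-29b-3p was at 0.32 (95% interval -0.01 to 0.65, adjusted p = 0.65). Both PBS/PBS arrays lay below all OVA/OVA DEX arrays for miR-29c-3p, miR-29c-5p and miR-29b-1-5p, and for 50 of all 266 miRNAs (18.8%). The intervals of all 6 members included 0. Both dexamethasone comparisons share the 4 OVA/OVA DEX arrays.

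**Figure D4:**
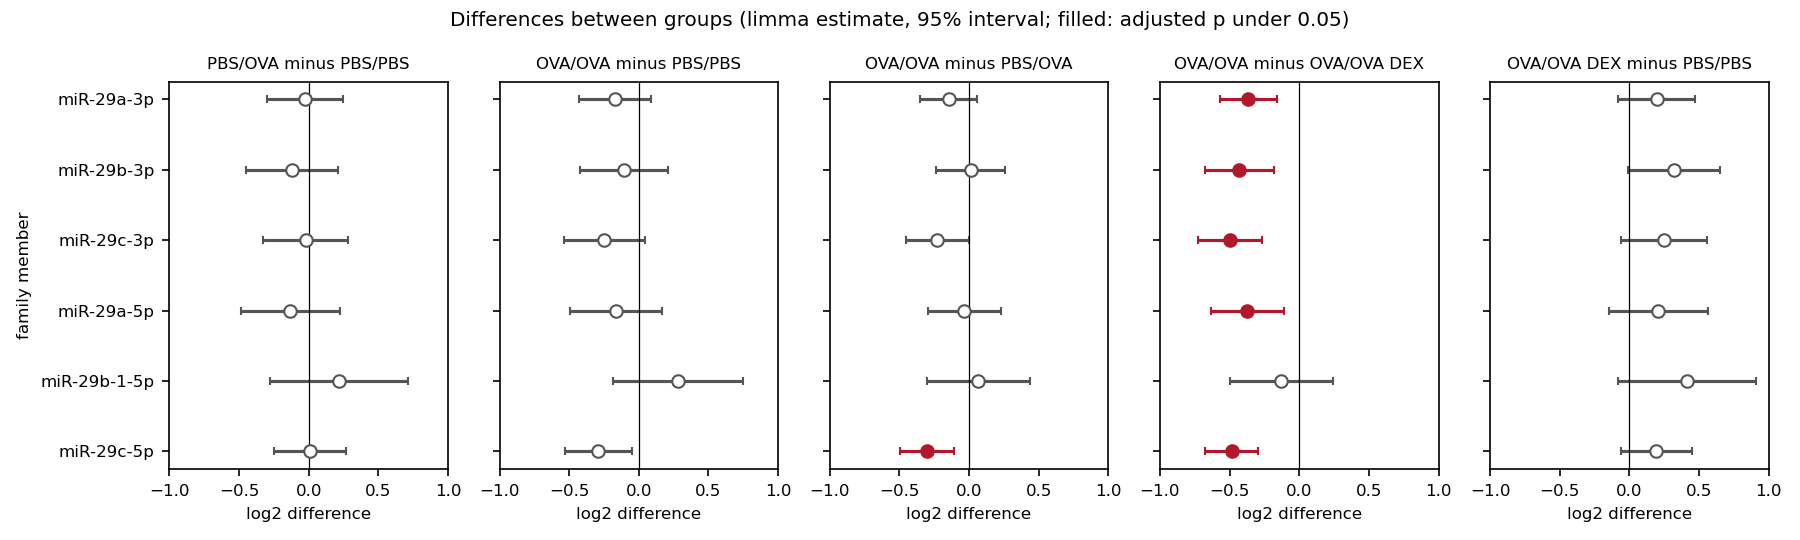
Difference of each member (y axis) in each comparison (panels, x axis in log2, first group minus second) as the limma estimate with its 95% interval; filled red points are past an adjusted p of 0.05. Of the 30 estimates 6 are filled, 5 in the panel of OVA/OVA against OVA/OVA DEX and 1, miR-29c-5p, in that of OVA/OVA against PBS/OVA.

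The guides were next compared with each other as ratios within an array, from which a scaling factor per array cancels. Quantile normalization, which is not a single factor, does change them. Only the change of a ratio between groups was read, since its level depends on the probes. The exact two-sided permutation test over arrays was applied to 3 pairs of guides in 5 comparisons, with Benjamini-Hochberg adjustment over the 15 tests. The smallest p that 4 against 6 arrays allow is 0.0048. How often ratios of other miRNA pairs separate the same groups was not tested. Single miRNAs differed often, in either direction. Between OVA/OVA and PBS/OVA, 31.6% of the 266 tested were past the threshold. For OVA/OVA set beside OVA/OVA DEX the share was 53.4%. The ratio changes below are therefore not read as particular to the miR-29 guides.

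The log2 ratio of miR-29c-3p to miR-29b-3p was lower in OVA/OVA than in PBS/OVA. It was -0.55, -0.64, -0.59 and -0.63 on the PBS/OVA arrays and from -0.93 over a median of -0.82 to -0.79 on the OVA/OVA arrays, which did not overlap. The change was -0.24 (SE 0.03, exact permutation p = 0.0048, adjusted p = 0.036). It was -0.25 within slide 1 and -0.24 within slide 2, and -0.25 without PBS/OVA replicate 2. PBS/PBS arrays were at -0.64 and -0.76, also above all OVA/OVA arrays, with a change of -0.14 (exact permutation p = 0.036, the smallest that 2 against 6 arrays allow, adjusted p = 0.13).

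The ratio of miR-29c-3p to miR-29a-3p, 2 guides that differ by 1 base, was lower in OVA/OVA than in OVA/OVA DEX, with a change of -0.13. OVA/OVA arrays ran from -1.14 over -1.08 to -1.03 and OVA/OVA DEX arrays were at -0.97, -0.97, -0.98 and -0.88, without overlap (SE 0.03, exact permutation p = 0.0048, adjusted p = 0.036). The highest of these was the uneven array, replicate 4, and without it the change was -0.11. Within slide 1, which holds that array, the change was -0.19, and within slide 2 it was -0.09. MiR-29a-3p and miR-29c-3p signals may hold some of each other, and the probe sequences were not used here.

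With quantile normalization, tried after the data were seen, neither pair was called in the exact permutation test. The change was then -0.15 for miR-29c-3p to miR-29b-3p (adjusted p = 0.29) and turned sign to 0.07 for miR-29c-3p to miR-29a-3p (adjusted p = 0.57).

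In the other 13 tests the adjusted p was 0.071 or higher. The ratio of miR-29b-3p to miR-29a-3p was higher in OVA/OVA than in PBS/OVA by 0.16 (SE 0.04, exact permutation p = 0.014, adjusted p = 0.071), with groups that overlapped. The 2 calls rest on the definition of the two-sided p. The p counted splits with an absolute difference as large as that observed, and when it was taken as 2 times the smaller tail, both adjusted p-values were 0.071 in the exact permutation test and no pair was called. Leaving out an array of a compared group raises the smallest p the test can give. Calls were lost in 13 of the 16 repeats that left out 1 array each, and the direction of both changes stayed. The remaining repeats left out a PBS/PBS array, which is in neither of the 2 calls, or OVA/OVA replicate 2.

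**Figure D5:**
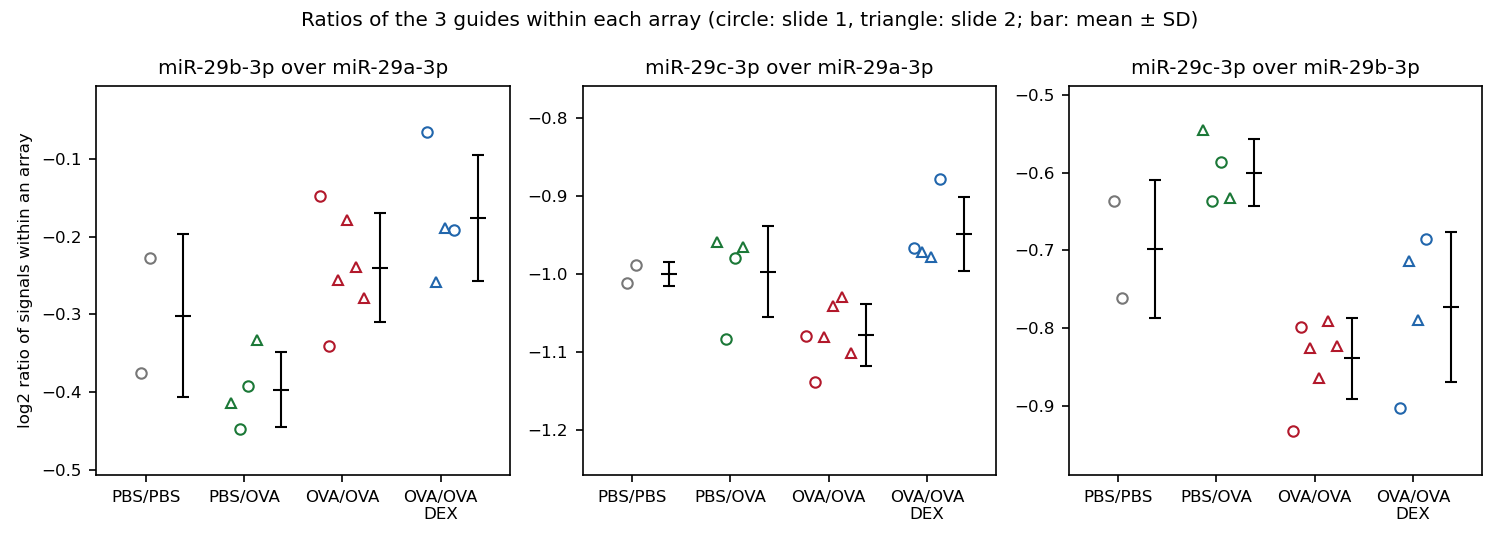
Log2 ratio of the signals of 2 guides within each array (y axis) by group (x axis) for the 3 pairs (panels); circles are slide 1, triangles slide 2, and the black bar is the group mean with its SD. In the right panel the OVA/OVA arrays (-0.93 to -0.79) lie under the PBS/OVA arrays (-0.64 to -0.55), and in the middle panel they lie under the OVA/OVA DEX arrays (-0.98 to -0.88).

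Across the 16 arrays the guides moved together. Pearson correlations of the log2 signal were 0.98 between miR-29a-3p and miR-29c-3p, 0.91 between miR-29a-3p and miR-29b-3p and 0.89 between miR-29b-3p and miR-29c-3p. Guide and passenger of a hairpin correlated at 0.95 for miR-29c and 0.86 for miR-29a. MiR-29b-1-5p correlated with the other members at 0.19 to 0.28. The median over all pairs of miRNAs detected on all arrays was 0.11. These values are descriptions over 16 points that share array, slide, scaling and group.

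After subtraction of the group means, miR-29a-3p and miR-29c-3p still correlated at 0.96 and miR-29b-3p with either at 0.92 or 0.93, so the guides also varied together among arrays of the same group.

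MiRNAs outside the family with the most similar profiles were sought among the 200 others detected on all arrays. Over the 16 arrays, miR-29c-3p was most like miR-30a-5p (r = 0.96), the red cell miR-451 (0.95) and miR-26a-5p (0.94). MiR-29a-3p was most like miR-200a-3p (0.94), an epithelial miRNA, miR-30a-5p (0.94) and miR-3107-5p (0.93), the name on this array for the sequence of the red cell miR-486-5p, and miR-29b-3p most like miR-200a-3p (0.94), miR-186-5p (0.91) and miR-30a-5p (0.88). For miR-29c-5p they were miR-676-3p, miR-26a-5p (both 0.97) and miR-30d-5p (0.96), and for miR-29a-5p miR-194-5p (0.91), miR-186-5p and miR-30c-2-3p (both 0.89). MiR-29b-1-5p reached 0.66 with let-7d-5p, 0.61 with miR-702 and 0.60 with miR-15a-5p.

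With deviations from group means the leading miRNAs were miR-30a-5p (0.87), miR-200a-3p (0.87) and miR-16-5p (0.84) for miR-29a-3p. They were miR-200a-3p (0.94), miR-30b-5p (0.87) and miR-30a-5p (0.86) for miR-29b-3p, and miR-30a-5p (0.91), miR-200a-3p (0.89) and miR-30b-5p (0.86) for miR-29c-3p. For the 5′ arms they were miR-194-5p (0.85), miR-3107-5p and miR-30a-5p (both 0.83) for miR-29a-5p, miR-26a-5p (0.91), miR-676-3p (0.91) and miR-451 (0.90) for miR-29c-5p, and let-7c-5p (0.77), let-7b-5p (0.73) and let-7d-5p (0.69) for miR-29b-1-5p.

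MiR-30a-5p, the most frequent of these, differed between OVA/OVA and OVA/OVA DEX by -0.55 (SE 0.09, adjusted p = 0.00051), miR-26a-5p by -0.50 (SE 0.10, adjusted p = 0.0012) and miR-451 by -1.04 (SE 0.20, adjusted p = 0.00092). MiR-200a-3p differed by -0.27 (SE 0.08, adjusted p = 0.014). Others of the nearest miRNAs were not past the threshold, such as miR-16-5p (-0.09, adjusted p = 0.41), let-7d-5p (-0.09, adjusted p = 0.28) and miR-702 (0.30, adjusted p = 0.44). All were picked by correlation over arrays that include these groups, so a shared difference is no separate support.

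Other miRNAs linked to matrix and fibrosis were taken from a list of 37, of which 34 were tested. It includes miR-21-5p and miR-155-5p, which are known to rise with inflammation and in fibrotic tissue, the fibroblast miR-199 and miR-214 genes and the miR-30, miR-133 and let-7d genes, which are known to restrain profibrotic mRNAs, and it overlaps the cell type lists above. Of the 34, 23 were lower and 4 higher in OVA/OVA than with dexamethasone, with a median of -0.29 beside -0.09 over all miRNAs. Among all 266 miRNAs tested, 86 (32.3%) were lower and 56 higher in that comparison. Against PBS/OVA, 7 were lower and 3 higher (median -0.19), beside 16.9% lower and 14.7% higher among all miRNAs (median -0.04). Against PBS/PBS 5 were lower and 3 higher (median -0.20), beside 12.4% lower and 13.2% higher (median -0.02). In the 2 comparisons without OVA/OVA none was past the threshold.

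In the comparisons of OVA/OVA with OVA/OVA DEX and with PBS/OVA, the list's largest changes past the threshold were in miR-155-5p and miR-21-5p, which were higher in OVA/OVA. MiR-155-5p was higher in OVA/OVA than in OVA/OVA DEX by 2.60 (SE 0.27, adjusted p = 1.6e-05), than in PBS/OVA by 1.87 and than in PBS/PBS by 1.99. For miR-21-5p the same 3 differences were 1.45 (SE 0.18, adjusted p = 4.3e-05), 0.92 and 1.48. MiR-133b-3p, a striated muscle miRNA, was lower in OVA/OVA than in OVA/OVA DEX (-0.93, adjusted p = 0.012) and than in PBS/OVA (-0.90, adjusted p = 0.025). Against PBS/PBS the largest change was that of miR-30c-1-3p, which was lower in OVA/OVA (-2.63, adjusted p = 0.0072). It was detected on 2 of 2 PBS/PBS, 1 of 4 PBS/OVA, 1 of 6 OVA/OVA and 0 of 4 OVA/OVA DEX arrays. Part of its values therefore lie at or near the floor of 0.77. MiR-30c-1-3p passed the detection filter only through PBS/PBS, the group where it was highest, so its difference is no separate support. The count of lower miRNAs of the list against PBS/PBS includes it.

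The log2 values that the authors had processed themselves and deposited were set against the scanner output. For the 3 guides and miR-29c-5p the 2 agreed on every array within 0.07 on the log2 scale after a constant shift per array. The deposited values labelled miR-29a* and miR-29b*, older names of the 5′ arms, were equal to those of miR-29a and miR-29b on all 16 arrays and lay 7.35 to 8.95 above the scanner values of the 5′ arms after the shift. Of the 109 miRNAs with both a starred and an unstarred name, 30 had equal values on all arrays, 4 of them with a deposited value above -3 on at least 1 array. Values of miR-29a-5p and miR-29b-1-5p here are therefore from the scanner output alone.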

How the data were processed

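Lung RNA was measured on 16 mouse miRNA arrays from Agilent (Release 12.0), read in 1 colour. For each array the authors deposited the scanner output, with spot intensities from Agilent Feature Extraction 10.7.3.1, background-subtracted and not normalized between arrays, and a table of processed log2 values whose normalization is not given in the sources used here.

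Outlier-flagged spots (336 to 481 of 13000 per array) and controls were left out, 0 spots were saturated, spots of a probe were averaged and probes of a miRNA summed. Arrays were divided by their 75th percentile, taken over the 206 miRNAs that all arrays detected, values were raised to a floor of 0.77 (log2), and log2 was taken. Groups were compared in 1 limma model of the 16 arrays (limma 3.58.1 in R 4.3.3), with Benjamini-Hochberg adjustment over 266 miRNAs, those that all arrays of some group detected. Viral miRNAs (39) were not tested. Exact permutation tests were run in scipy 1.17.1 and numpy 2.4.6 under Python 3.11.15, tables were handled in pandas 2.3.3 and plots drawn in matplotlib 3.10.9. The members, lists and tests were chosen with earlier results of these data known. Named miRNAs were all members, the 3 nearest others by each correlation, and up to 3 of the fibrosis list with the largest change past the threshold. Of the listed marker miRNAs, miR-486-5p (red cell) and miR-199b-3p (fibroblast) were not found under these names and stayed out of the sums. The deposited miR-486 values matched the scanner values of miR-3107-5p within 0.061 on the log2 scale after the shift per array.

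The fit was tested on simulated data for OVA/OVA against OVA/OVA DEX (266 miRNAs) and recovered 13 of 25 changes of 0.5 and 24 of 25 changes of 1 on the log2 scale, with 1 false call. Alternatives were other percentiles, no scaling, quantile normalization, normexp with an offset of 50 on the median spot signals (the mean signals, as planned, were not used here), total gene signal, mean over probes, deposited values, other filters and floors, slide and replicate blocks, another variance model, fits of the compared groups, a 2-fold minimum, the methods' Mann-Whitney test, and leaving out each array. The number of arrays limits the precision.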

Additional observations from a re-analysis of the deposited data

Results flagged for a closer look

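Arrays far from the rest of their group were sought in the 6 members and the 3 guide ratios, in the groups of 4 or 6 arrays. Of 27 such groups 5 held one by Dixon's test at the 95% level, which by chance picks about 5% of independent groups. The 27 are not independent, because most members moved together and the ratios were built from the guides. The same array can be counted more than once, so the count cannot be set against that rate. The arrays stand apart because their gap to the next array is large beside the range of the group.

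PBS/OVA replicate 2 was at 12.55 for miR-29b-3p, while the other PBS/OVA arrays lay between 12.95 and 13.02. The same array had a log2 ratio of miR-29c-3p to miR-29a-3p of -1.08, against -0.98 to -0.96. OVA/OVA DEX replicate 4, the array with uneven spots, was at 6.72 for miR-29a-5p, against 7.03 to 7.08, and its ratio of miR-29c-3p to miR-29a-3p was -0.88, against -0.98 to -0.97. OVA/OVA DEX replicate 1 was at 7.44 for miR-29c-5p, against 7.25 to 7.28.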

How the results depend on the processing

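Between OVA/OVA and OVA/OVA DEX, 5 members were past the threshold. The number was 2 with quantile normalization, 3 with normexp, 0 when arrays were not scaled, 0 when a 2-fold change was required as well, and 4 to 5 when each array was left out in turn. MiR-29a-5p was the call lost, without OVA/OVA DEX replicate 1 or 2, and it was also lost in the fit with the replicate number as a block (4 members past the threshold). Same-numbered arrays correlated at -0.59 to 0.38 in their deviations from group means, with 4 of 18 pairs over 0.1. Of 16 arrays, 0 correlated best with an array of their own number. Subtracting the mean of a small group ties its arrays to each other. Whether same-numbered arrays share more than a number therefore cannot be told from these values.

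Between OVA/OVA and PBS/OVA, 1 member was past the threshold. The number was 0 with normexp, when arrays were not scaled, with the percentile over all miRNAs, with only the compared groups in the fit, with the 2-fold minimum and in the methods' Mann-Whitney test. Leaving out each array gave 0 to 3, and leaving out PBS/OVA replicate 2 and OVA/OVA DEX replicate 4 together, chosen after the data were seen, gave 4. Between OVA/OVA and PBS/PBS, 0 members became 5 lower in OVA/OVA when arrays were not scaled and with the percentile over all miRNAs, 1 lower with quantile normalization and with the deposited values, 2 lower without those 2 arrays, and 2 higher with normexp. Leaving out each array gave 0 to 1, where PBS/OVA replicate 2, OVA/OVA replicate 4 or OVA/OVA replicate 5 gave the 1. The other 2 comparisons gave 0 members under every alternative run. With 1 PBS/PBS array left out, the lone array is assumed to vary like the other groups. The guide pairs that changed unequally, 2 as reported, were 0 to 3 with each array left out, and 0 with quantile normalization and with the p taken as 2 times the smaller tail, both chosen after the data were seen. The 75th percentile of spots was also added then.

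The sign of some differences turned. With normexp, miR-29a-5p turned to 0.093 against OVA/OVA DEX, 0.32 against PBS/OVA and 0.59 against PBS/PBS, miR-29c-5p to 0.28 and 0.091 against PBS/PBS and PBS/OVA, miR-29b-1-5p to 0.19 against OVA/OVA DEX and miR-29b-3p to -0.033 against PBS/OVA. MiR-29b-1-5p turned against PBS/PBS and PBS/OVA with the percentile over all miRNAs (-0.25, -0.17), with no scaling (-0.81, -0.45), with quantile normalization (-0.24, -0.20), with the slide as a block (-0.00089, -0.0042) and within slide 1 (-0.090, -0.14), and against PBS/OVA with the total gene signal (-0.036) and the replicate block (-0.064). MiR-29b-3p turned against PBS/OVA with no scaling (-0.50), the percentile over all miRNAs (-0.23), within slide 2 (-0.066) and without the 2 arrays (-0.10). The 75th percentile of spots gave 0.012 for miR-29a-5p and -0.00025 for miR-29b-3p against PBS/OVA and 0.043 for miR-29b-1-5p against OVA/OVA DEX. With arrays left out, the ranges against PBS/OVA were -0.19 to 0.038 for miR-29a-5p, -0.011 to 0.20 for miR-29b-1-5p and -0.10 to 0.061 for miR-29b-3p, and for miR-29b-1-5p against OVA/OVA DEX -0.19 to 0.0017. The cause of these changes was not tested. The number of arrays and, for the 5′ arms, signals of 33.0 to 259 units limit the precision.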
